A study of Mus musculus with 18 samples.

Results

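The 33 genes described here encode proteins of DNA break repair, the Fanconi anaemia pathway and the damage checkpoint. The rule that picks them is a list of gene names and uses no measured value, though the list was chosen with earlier results of these data known. All 33 had a row in the cell table of 55183 genes, and 32 of them in the brain table of 19464 genes, where Brip1 has no row. RNA sequencing was done on 18 mouse libraries in 6 groups of 3. Cells of the line PTCP53 304, derived from Sonic hedgehog (SHH) medulloblastoma with the genotype Ptch1+/-; Trp53-/-, received CT-179 or vehicle and were taken at 144 h or 24 h, on days 6 and 1 of culture. CT-179 is a small molecule inhibitor of the transcription factor OLIG2. Whole brains came from mice labelled Ptch1+/-; IR that received CT-179 or vehicle for 12 days, between postnatal days 3 and 15, and the labels leave IR unexplained. CT-179 and vehicle cells share the label Trp53-/-, and all cell results come from 1 line. The series asks what inhibiting OLIG2 does to medulloblastoma cells. Nothing in the labels says whether replicates came from different cultures or animals, so the p-values here measure only how far these libraries spread, which could be technical spread.

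A replication fork that meets a crosslink between the DNA strands is repaired through the Fanconi pathway. A core complex (Fanca, Fancc, Fancg, Fancl, Fancm) attaches ubiquitin to the Fancd2-Fanci pair, and the crosslink is then cut and mended by homologous recombination. In homologous recombination the Mre11a-Rad50-Nbn complex trims the broken ends, and Brca1, Palb2 and Brca2 then prepare them for strand exchange. Breaks can also be rejoined directly by Xrcc5, Xrcc6, Prkdc and Lig4. Atm and Atr are the kinases that signal breaks and stalled forks, through Chek2 and Chek1. Many of the recombination and Fanconi genes are transcribed mainly in cells that replicate their DNA, and inherited loss of pathway members such as Brca2, Palb2 or Fanca raises the risk of cancer in people, medulloblastoma included for Brca2 and Palb2.

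Levels are FPKM, fragments per kilobase of gene and per library size, as the authors deposited them. From the low values, a depth of 29489000 to 70891700 reads was inferred for libraries of the cells and 17747500 to 63578300 reads for those of the brains. The library CT-179 at 144 h replicate 2 stood apart from its group, at Pearson's r of 0.941 and 0.943, where every other pair of cell replicates reached 0.996 or more. Results that rest on it are given with and without it. Trp53, the gene labelled as deleted, had 6.84 to 15.8 FPKM in the cells. A value per gene does not show which exons the reads came from, so it checks nothing about the deletion. Ptch1, the receptor that restrains SHH signalling, averaged 16.8 FPKM in CT-179 cells and 25.2 FPKM in vehicle cells at 144 h. Without the library that stood apart, its CT-179 mean at 144 h was 21.3 FPKM. At 24 h Ptch1 averaged 3.10 FPKM in CT-179 cells and 3.75 FPKM in vehicle cells. Olig2 was at 180.3 to 411 FPKM in the cells and 23.3 to 28.7 FPKM in the brains. Of the 10 markers of the cerebellar granule lineage, from which SHH tumours arise, 7 were under 1 FPKM in every library of each of the 4 cell groups, and 0 of the 10 were in the brains. The oligodendrocyte precursor list, Olig2 included, summed to 844 to 1259.5 FPKM in the cells.

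Most of the repair genes differed between culture times. At 144 h against 24 h, 28 of the 33 genes fell in vehicle cells and 0 rose, and 29 fell and 0 rose with CT-179. Over all 12510 genes tested, 32.4% fell and 34.1% rose in vehicle cells, and 32.1% fell and 33.2% rose with CT-179. The median log2 change of the repair genes was −1.19 in vehicle cells and −1.28 with CT-179, beside 0.01 and −0.02 for all genes. A call means an adjusted p under 0.05 in limma on log2(FPKM + 1), adjusted by Benjamini-Hochberg over all genes tested. Fold changes on that scale understate the change of low genes, so ratios of mean FPKM stand beside them. All 33 genes passed the filter of 1 FPKM in 3 libraries, many of them through their 24 h levels. The groups did not overlap, with 144 h lower, for 29 genes in vehicle cells (42.9% of all genes) and 29 with CT-179 (34.1%), and with 144 h higher for 1 in vehicle cells (44.6%) and 0 with CT-179 (33.4%). Leaving out CT-179 at 144 h replicate 2 gave 30 lower and 1 higher in vehicle cells, beside 43.4% and 44.2% of all genes, and 29 lower and 1 higher with CT-179, beside 41.7% and 43.9%. The groups with CT-179 then did not overlap for 29 genes lower at 144 h (44.2% of all genes) and 2 higher (46%). Levels at 24 h ran over a wide range, with vehicle means between 2.21 FPKM for Fancc and 105 FPKM for Parp1. Fewer cells of a type and less RNA per cell cannot be told apart in these bulk samples.

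**Figure D1:**
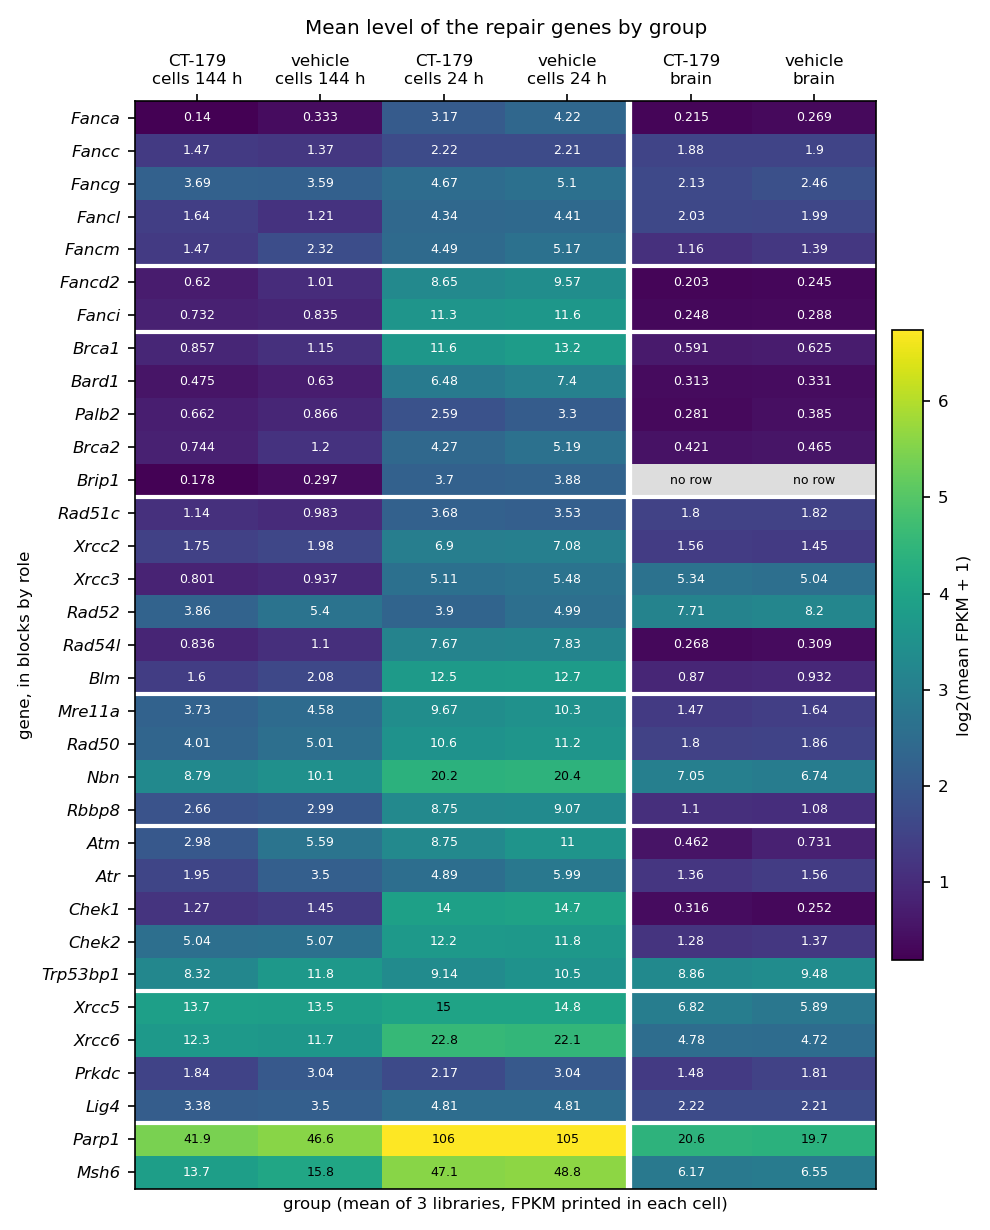
Mean level (FPKM, printed in each cell of the grid and coloured as log2 of mean FPKM + 1) of the repair genes in 6 groups of 3 libraries, in blocks by role. At 144 h most genes sit below their 24 h level in both treatments. In vehicle cells Prkdc, Xrcc5 and Rad52 stay at similar levels, and Trp53bp1 lies somewhat higher at 144 h. Cell and brain tables were normalized separately.

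**Figure D2:**
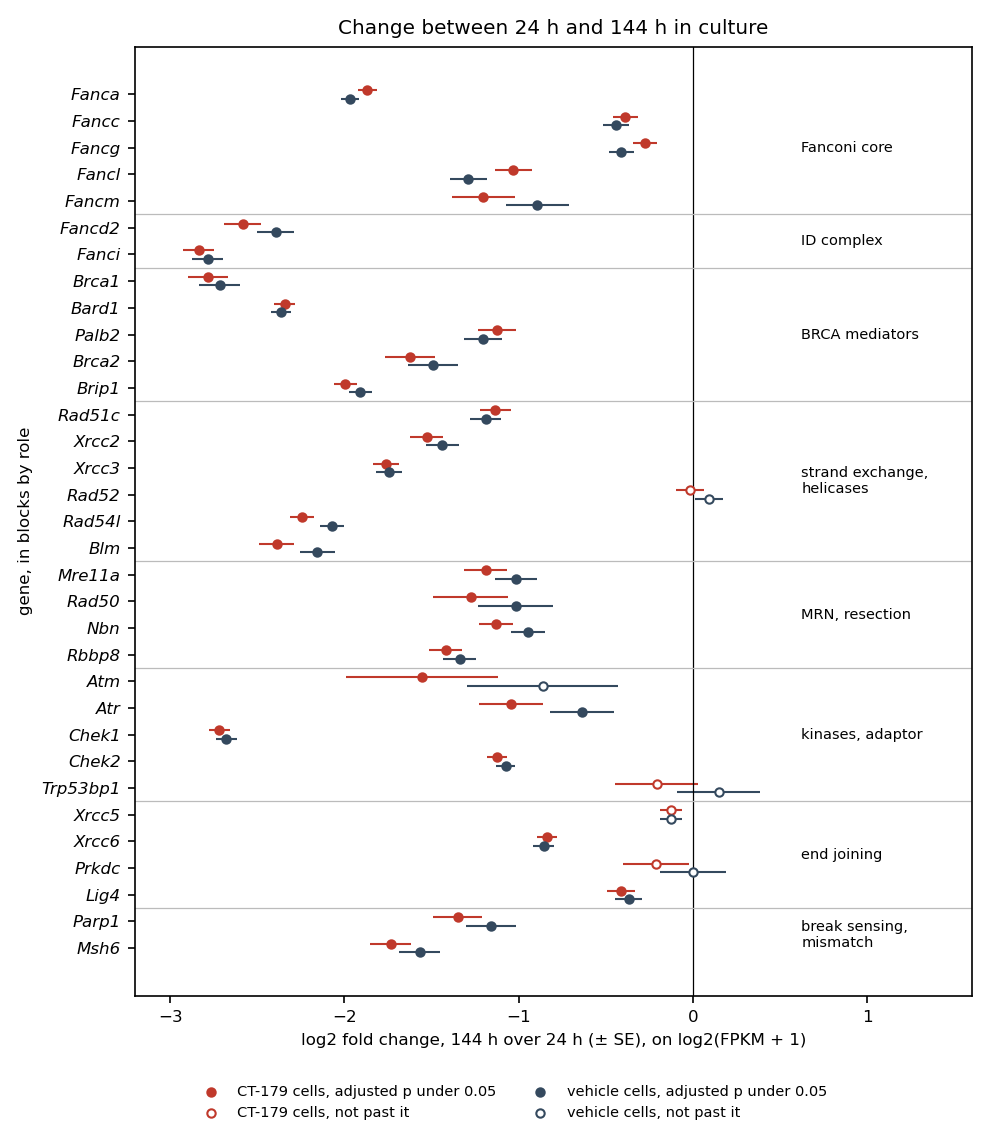
Log2 fold change (± SE) of each repair gene at 144 h over 24 h, in CT-179 cells and vehicle cells, with filled points for an adjusted p under 0.05. The Fancd2-Fanci pair (ID complex), Brca1, Bard1, Rad54l, Blm and Chek1 lie below −2 in both treatments, and the end joining genes lie at −0.86 or above.

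The Fancd2-Fanci pair, the part of the Fanconi pathway that receives ubiquitin, was among the genes with the largest falls. Fanci had 0.854, 0.820 and 0.830 FPKM in vehicle cells at 144 h, against 11.6, 11.2 and 12.0 FPKM in vehicle cells at 24 h. The groups were far apart, a ratio of mean FPKM of 0.0717, and the log2 change was −2.78 ± 0.09 (SE, limma adjusted p = 9.3e-10). Fancd2 had 0.854, 1.20 and 0.989 FPKM at 144 h, against 9.15, 9.77 and 9.79 FPKM at 24 h in vehicle cells. Its log2 change was −2.39 ± 0.11 in vehicle cells (limma adjusted p = 9.1e-09). With CT-179 Fancd2 had 0.757, 0.351 and 0.753 FPKM at 144 h, against 8.62, 8.31 and 9.0 FPKM at 24 h. The value of 0.351 FPKM belongs to the library that stood apart, and the fall was as plain in the other libraries. Fanci with CT-179 was at 0.855, 0.463 and 0.878 FPKM at 144 h, against 11.7, 11 and 11.2 FPKM at 24 h.

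All 5 genes of the Fanconi core complex in the list fell with time, by very different amounts. Fancb, a core subunit outside the list, averaged 0.808 FPKM at 144 h and 12.2 FPKM at 24 h in vehicle cells. Fanca, a structural subunit of the complex, had 0.313, 0.350 and 0.337 FPKM in vehicle cells at 144 h, against 4.43, 4.25 and 3.97 FPKM at 24 h. That is 12.7-fold lower, with a log2 change of −1.97 ± 0.05 (limma adjusted p = 2.5e-10). Fancl, the ubiquitin ligase of the complex, and Fancm, a DNA translocase that anchors it to chromatin, changed by −1.29 ± 0.11 and −0.89 ± 0.18 on the log2 scale. Fancc and Fancg, further structural subunits, fell least, by 0.44 ± 0.07 and 0.41 ± 0.07. Fancg was at 3.59 ± 0.18 FPKM at 144 h and 5.10 ± 0.19 FPKM at 24 h in vehicle cells (SD, n = 3 each). The 5 listed subunits, which work in 1 complex, thus spanned ratios of 144 h to 24 h mean FPKM between 0.0790 for Fanca and 0.703 for Fancg.

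The BRCA mediators all fell in vehicle cells, with a median log2 change of −1.91. Brca1, which helps to start recombination at trimmed ends, had 1.17, 1.17 and 1.13 FPKM at 144 h, against 12.8, 13.5 and 13.2 FPKM at 24 h. It was 11.4-fold lower (log2 change −2.72 ± 0.12, limma adjusted p = 7.3e-09). With CT-179 Brca1 had 0.968, 0.464 and 1.14 FPKM at 144 h, against 11.8, 11.3 and 11.8 FPKM at 24 h. Its partner Bard1, which forms a ubiquitin ligase with it, had 0.654, 0.643 and 0.594 FPKM at 144 h, against 7.11, 7.61 and 7.47 FPKM at 24 h in vehicle cells, a log2 change of −2.36 ± 0.06. With CT-179 Bard1 had 0.486, 0.394 and 0.544 FPKM at 144 h, against 6.57, 6.28 and 6.58 FPKM at 24 h, again far apart. Brip1, a helicase that binds Brca1, had 0.312, 0.303 and 0.275 FPKM at 144 h, against 3.53, 4.01 and 4.11 FPKM at 24 h in vehicle cells, a log2 change of −1.91 ± 0.07. With CT-179 Brip1 had 0.225, 0.108 and 0.201 FPKM at 144 h, against 3.87, 3.66 and 3.57 FPKM at 24 h (−2.00 ± 0.07). Brca2, a mediator of homologous recombination, fell less far. It had 1.13, 1.29 and 1.19 FPKM in vehicle cells at 144 h, against 5.02, 5.03 and 5.51 FPKM at 24 h (log2 change −1.49 ± 0.14). Palb2, the bridge between Brca1 and Brca2, changed by −1.20 ± 0.11.

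Among the strand exchange genes and helicases, 5 of 6 fell in both treatments. Rad54l, a DNA translocase of homologous recombination, had 1.09, 1.05 and 1.17 FPKM at 144 h, against 7.74, 7.53 and 8.22 FPKM at 24 h in vehicle cells (log2 change −2.07 ± 0.07). Blm, the helicase mutated in Bloom syndrome, had 1.85, 1.14 and 1.82 FPKM at 144 h with CT-179, against 12.5, 12.5 and 12.6 FPKM at 24 h with CT-179 (log2 change −2.39 ± 0.10). Xrcc3, a subunit of a complex that acts in homologous recombination, had 0.772, 0.987 and 1.05 FPKM at 144 h, against 5.60, 5.4 and 5.43 FPKM at 24 h in vehicle cells (−1.74 ± 0.07). Its partner Rad51c, and Xrcc2 of a related complex, changed by −1.19 ± 0.09 and −1.44 ± 0.09. Rad52, which anneals single strands, was the exception. It had 5.01, 5.93 and 5.26 FPKM at 144 h, against 5.26, 4.98 and 4.75 FPKM at 24 h in vehicle cells, and these values overlapped (log2 change 0.09 ± 0.08, limma adjusted p = 0.34).

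The 4 genes of end trimming fell together in vehicle cells, with log2 changes of −1.01 ± 0.12 for the nuclease Mre11a, −1.02 ± 0.21 for Rad50, −0.95 ± 0.10 for Nbn and −1.34 ± 0.09 for Rbbp8, the cofactor that starts resection. The 3 subunits of the Mre11a-Rad50-Nbn complex kept like shares of their 24 h levels, with ratios of 0.447, 0.449 and 0.495 of mean FPKM. Of the damage kinases Chek1 had the largest log2 change, and differences between these genes were not tested. Chek1, which halts the cycle when forks stall, had 1.62, 1.38 and 1.35 FPKM at 144 h, against 14.7, 14.3 and 15.1 FPKM at 24 h in vehicle cells. It was 10.1-fold lower (log2 change −2.68 ± 0.06, limma adjusted p = 7.4e-11). With CT-179 Chek1 had 1.30, 1.21 and 1.31 FPKM at 144 h, against 14.1, 13.5 and 14.2 FPKM at 24 h. Chek2, its counterpart downstream of Atm, fell by 1.08 ± 0.06 on the log2 scale in vehicle cells, 2.32-fold in mean FPKM, where Atm was 1.96-fold lower. Atr, the kinase upstream of Chek1, was 1.71-fold lower at 144 h in vehicle cells (log2 change −0.64 ± 0.18, limma adjusted p = 0.011). Atm had 5.20, 5.92 and 5.66 FPKM at 144 h, against 10.9, 10.7 and 11.3 FPKM at 24 h in vehicle cells. The groups did not overlap, yet the call was missed with all libraries (log2 change −0.86 ± 0.43, limma adjusted p = 0.10). The wide error of Atm comes with its value of 0.277 FPKM in the library that stood apart. Without that library Atm passed at the same change (SE 0.04). Trp53bp1, an adaptor that favours end joining, was at 11.8 ± 0.22 FPKM at 144 h and 10.5 ± 0.33 FPKM at 24 h in vehicle cells (SD, n = 3 each), with a log2 change of 0.15 ± 0.24 (limma adjusted p = 0.60). Without the library that stood apart, Trp53bp1 was the 1 repair gene that rose in vehicle cells, and 30 fell.

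End joining had the smallest median change of the roles, −0.25 in vehicle cells. Xrcc6, which with Xrcc5 forms the Ku ring that binds broken ends, had 11.4, 11.4 and 12.3 FPKM at 144 h, against 22.2, 23.4 and 20.6 FPKM at 24 h in vehicle cells (log2 change −0.86 ± 0.06, limma adjusted p = 3.2e-07). With CT-179 Xrcc6 had 12.1, 12.5 and 12.3 FPKM at 144 h, against 23.1, 23.1 and 22.3 FPKM at 24 h. The other Ku subunit, Xrcc5, was at 13.5 ± 0.83 FPKM at 144 h and 14.8 ± 0.57 FPKM at 24 h in vehicle cells (SD, n = 3 each), a log2 change of −0.12 ± 0.06 (limma adjusted p = 0.11). Prkdc, the catalytic subunit of the kinase that Ku recruits, had 2.95, 3.24 and 2.94 FPKM at 144 h and 3.11, 2.98 and 3.04 FPKM at 24 h in vehicle cells, overlapping values. Lig4, the ligase that seals the break, fell by 0.37 ± 0.08. Parp1, which binds strand breaks and was the most abundant of the 33 genes in every group, had 46.6, 45.7 and 47.4 FPKM at 144 h, against 107, 104 and 105 FPKM at 24 h in vehicle cells (log2 change −1.16 ± 0.14). With CT-179 Parp1 had 46.8, 30.3 and 48.6 FPKM at 144 h, against 105, 105 and 109.6 FPKM at 24 h. Msh6, the mismatch recognition subunit, fell by 1.57 ± 0.12.

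Other measures moved with culture time in the same libraries. All 26 genes of a proliferation list fell in vehicle cells, with a median log2 change of −3.28 and none outside −5.25 to −2.38. Mki67, a marker of cycling cells, was at 4.19 ± 0.35 FPKM at 144 h and 66.3 ± 2.5 FPKM at 24 h in vehicle cells (SD, n = 3 each). The 10 astrocyte markers summed to 1227 to 1244 FPKM at 144 h and 504 to 534 FPKM at 24 h in vehicle cells, and all 10 rose. Oligodendrocyte markers summed to 56.7 to 60.7 FPKM at 144 h and 10.4 to 10.5 FPKM at 24 h in vehicle cells, with 2 of 3 tested genes higher and 6 of the 10 under 1 FPKM in every vehicle library at 144 h. Neuron markers summed to 101 to 103 FPKM at 144 h and 44.8 to 45.9 FPKM at 24 h, with 4 of 5 tested genes higher, and microglia markers to 65.4 to 71.9 FPKM and 15.0 to 15.9 FPKM, with 9 of the 10 under 1 FPKM at both times. Of the oligodendrocyte precursor markers 5 of 9 tested rose and 3 fell. Among them Gpr17, a receptor of committed precursors, was at 49.3 ± 3.2 FPKM at 144 h and 0.228 ± 0.013 FPKM at 24 h, and Olig2 was at 201 ± 4.3 FPKM at 144 h and 382 ± 15.2 FPKM at 24 h in vehicle cells (SD, n = 3 each). Gfap, the intermediate filament of astrocytes, changed by 6.07 ± 0.10 on the log2 scale. The part of proliferation or of cell identity in the fall of the repair genes was not tested.

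Promoters are shown for the genes of the Fanconi, BRCA and checkpoint groups with the largest and the smallest changes between times in vehicle cells, because these genes moved by such unequal amounts. The RefSeq table (GRCm38.p6) held a promoter, from 250 bases before the start to 50 bases after it, for 27 of the 33 genes. Fancd2, Rad50, Nbn, Prkdc, Rbbp8 and Xrcc2 had none there. Capitals mark a match, on either strand, to 1 of 4 spellings of the core of the E2F site (TTCCCGC in the first, TTGGCGC in the next, then TTCGCGC and lastly TTGCCGC). E2F factors switch on genes of DNA replication. Changes were ranked on the log2(FPKM + 1) scale. The 3 largest falls among genes with a promoter in the table were then those of Fanci (chr7:79392088-79392387, plus strand), Brca1 (chr11:101551906-101552205, minus strand) and Chek1 (chr9:36726609-36726908, minus strand).
Fanci: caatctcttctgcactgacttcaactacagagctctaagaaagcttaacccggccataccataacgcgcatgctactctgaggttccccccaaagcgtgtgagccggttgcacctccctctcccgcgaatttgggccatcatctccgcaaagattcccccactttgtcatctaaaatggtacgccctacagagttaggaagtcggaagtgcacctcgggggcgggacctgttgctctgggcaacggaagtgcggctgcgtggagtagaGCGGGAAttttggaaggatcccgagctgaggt
Brca1: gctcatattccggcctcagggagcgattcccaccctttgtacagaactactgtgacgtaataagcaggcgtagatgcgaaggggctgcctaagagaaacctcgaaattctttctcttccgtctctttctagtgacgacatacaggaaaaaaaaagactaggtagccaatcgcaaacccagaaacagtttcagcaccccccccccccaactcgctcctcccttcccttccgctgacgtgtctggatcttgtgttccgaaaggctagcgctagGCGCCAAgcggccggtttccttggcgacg
Chek1: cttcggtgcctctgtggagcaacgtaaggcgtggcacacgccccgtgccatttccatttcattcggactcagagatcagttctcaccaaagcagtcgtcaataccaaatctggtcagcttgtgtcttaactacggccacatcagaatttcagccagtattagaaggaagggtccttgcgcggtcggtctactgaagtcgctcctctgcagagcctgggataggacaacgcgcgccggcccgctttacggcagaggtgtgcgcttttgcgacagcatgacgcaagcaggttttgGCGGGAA
The 3 smallest changes were those of Fancc (chr13:63431696-63431995, minus strand), Fancg (chr4:43010252-43010551, minus strand) and Trp53bp1 (chr2:121271358-121271657, minus strand).
Fancc: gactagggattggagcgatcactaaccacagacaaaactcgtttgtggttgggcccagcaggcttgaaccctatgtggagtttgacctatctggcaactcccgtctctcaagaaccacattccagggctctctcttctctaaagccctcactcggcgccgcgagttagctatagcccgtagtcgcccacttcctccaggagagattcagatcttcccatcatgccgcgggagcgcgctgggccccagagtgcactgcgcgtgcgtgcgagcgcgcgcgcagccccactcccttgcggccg
Fancg: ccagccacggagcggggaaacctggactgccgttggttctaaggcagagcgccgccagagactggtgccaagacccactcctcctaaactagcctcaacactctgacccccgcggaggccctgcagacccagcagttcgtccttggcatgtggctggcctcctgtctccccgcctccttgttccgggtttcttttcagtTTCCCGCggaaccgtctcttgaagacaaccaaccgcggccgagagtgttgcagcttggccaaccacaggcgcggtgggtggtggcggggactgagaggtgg
Trp53bp1: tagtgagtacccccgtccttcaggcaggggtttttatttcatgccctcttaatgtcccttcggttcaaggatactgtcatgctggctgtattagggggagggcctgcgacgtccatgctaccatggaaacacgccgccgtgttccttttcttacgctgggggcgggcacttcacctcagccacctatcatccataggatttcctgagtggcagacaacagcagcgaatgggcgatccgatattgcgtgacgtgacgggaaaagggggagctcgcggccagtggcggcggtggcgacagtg
Each of the first 3 promoters held 1 match, within the 50 bases after the start of the gene. Of the second 3, Fancg held 1 match farther upstream and the others held none. The choice of the first 3 depends on the scale. By ratio of mean FPKM in vehicle cells, Brip1 (0.0765), Fanca (0.0790) and Bard1 (0.0852) fell further than Brca1 (0.0877) and Chek1 (0.0989). The promoters of Brip1 and Bard1 held 1 match each, and that of Fanca held none.

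Across the list, 18 of 30 promoters of these genes (60.0%) held such a match, beside 3145 of 32851 promoters in the table (9.6%). Some genes have more than 1 promoter in the table. The longer spelling with another T in front (TTTCCCGC, TTTGGCGC, TTTCGCGC or TTTGCCGC), whose matches are all among those of the shorter one, was in 26.7% of the repair gene promoters and 2.3% of all. A match was present in 10 of 17 genes with a log2 change below −1 between times in vehicle cells and in 6 of the other 10 genes, a like share of each. The CCAAT box of NF-Y was in 53.3% of the repair gene promoters and 37.4% of all, the cell cycle homology element TTTGAA in 3.3% and 17.9%, and the E-box CAGCTG, a form that OLIG2 can bind, in 13.3% and 16.3%. The motifs were chosen after earlier results were known, and the short E2F spelling after these promoters were seen. The promoters of the whole table were not limited to genes that passed the filter of 1 FPKM, as all the repair genes did. A match is a stretch of letters, not a bound site.

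Few repair genes passed with CT-179 when all libraries were used, and every call was a lower level with the drug. At 24 h 1 gene, Fanca, fell and 0 rose with all libraries in the fit, beside 0.264% of all genes lower and 0% higher. Without the library that stood apart, the same 24 h values gave 11 genes lower (33.3%) and 0 higher, beside 14.1% lower and 8.08% higher over all genes. At 144 h 2 genes, Rad52 and Fanca, fell and 0 rose, beside 3.37% lower and 0.512% higher over all genes. Without that library 9 genes fell (27.3%) and 0 rose, beside 16.9% and 11.8%. At unadjusted p under 0.05 there were 4 repair genes of 640 genes at 24 h and 13 of 3647 at 144 h with all libraries. The 24 h contrast uses no 144 h value. Its count changes because the 12 libraries share 1 estimate of the spread, and a fit of the 24 h libraries alone also called 11 genes.

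Fanca (mm10 chr8:123268300-123318576, minus strand) was lower with the drug at both times. It had 3.25, 3.17 and 3.08 FPKM with CT-179 at 24 h, against 4.43, 4.25 and 3.97 FPKM with vehicle. The groups did not overlap, and the level was 24.9% lower (log2 change −0.32 ± 0.05, limma adjusted p = 0.044). Leaving out CT-179 at 144 h replicate 2 kept this call (adjusted p = 0.0011), and leaving out any 1 of the other 11 libraries ended it, with adjusted p up to 0.24. At 144 h Fanca had 0.157, 0.121 and 0.143 FPKM with CT-179, against 0.313, 0.350 and 0.337 FPKM with vehicle. The ratio of means was 0.421, or 0.449 without the library that stood apart, while the log2(FPKM + 1) scale gave −0.23 ± 0.05 (limma adjusted p = 0.045). The call at 144 h was lost in 9 of 12 fits that left out 1 library, with adjusted p up to 0.18, and the change was 0.031 after a correction for exonic length with all libraries. These low values stood on 43.3 or more implied reads per library. Exons of Fanca share 10.5% of their bases with Zfp276 on the opposite strand, whose mean was 2.67 FPKM in CT-179 cells and 3.15 FPKM in vehicle cells at 24 h, and 4.18 FPKM in CT-179 cells and 5.79 FPKM in vehicle cells at 144 h. The strand of counting was not given in the sources used here, so reads of the pair in these bases cannot be told apart.

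Rad52 (mm10 chr6:119902698-119922828, plus strand) had 3.91, 3.87 and 3.92 FPKM with CT-179 at 24 h, against 5.26, 4.98 and 4.75 FPKM with vehicle. All CT-179 values were below all vehicle values, by 21.9% in the mean, yet the call was missed with all libraries (log2 change −0.29 ± 0.08, limma adjusted p = 0.32) and made without the library that stood apart (adjusted p = 0.0061). At 144 h Rad52 had 4.36, 3.43 and 3.77 FPKM with CT-179, against 5.01, 5.93 and 5.26 FPKM with vehicle. It was 28.6% lower (log2 change −0.40 ± 0.08, limma adjusted p = 0.025), and 24.7% lower without replicate 2 (adjusted p = 0.0038). The 144 h call was lost in 7 of 12 fits that left out 1 library, with adjusted p up to 0.13. Its exons overlap no other annotated exon. Rad52, which did not pass between times, averaged 5.4 ± 0.47 FPKM at 144 h and 4.99 ± 0.26 FPKM at 24 h in vehicle cells (SD, n = 3 each).

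**Figure D3:**
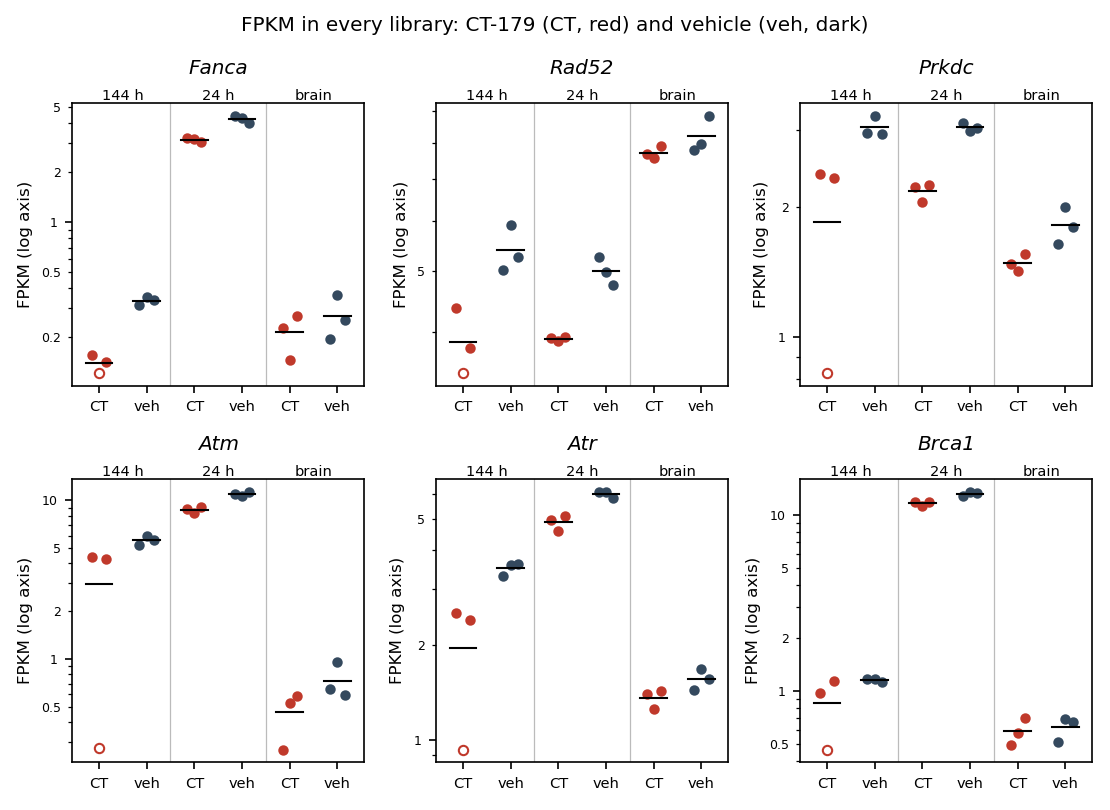
FPKM (log axis) of 6 repair genes in every library, CT-179 in red and vehicle in dark, at 144 h, at 24 h and in brain, with a line at each group mean. The open point is CT-179 at 144 h replicate 2. Fanca, Rad52, Prkdc, Atm and Atr with CT-179 lie below all vehicle libraries at both times.

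The large kinases lay on the same side of vehicle. Their genes are at mm10 chr16:15637889-15842235 (Prkdc, plus strand), chr9:53439149-53536740 (Atm, minus strand) and chr9:95857597-95951781 (Atr, plus strand). Prkdc had 2.22, 2.05 and 2.24 FPKM with CT-179 at 24 h, against 3.11, 2.98 and 3.04 FPKM with vehicle, 28.7% lower (log2 change −0.35 ± 0.04, limma adjusted p = 0.00053 without the library that stood apart). At 144 h Prkdc had 2.38, 0.827 and 2.32 FPKM with CT-179, against 2.95, 3.24 and 2.94 FPKM with vehicle. Without the value of 0.827 FPKM it was 22.8% lower (log2 change −0.27 ± 0.05, limma adjusted p = 0.0025). Atm had 8.85, 8.38 and 9.01 FPKM with CT-179 at 24 h, against 10.9, 10.7 and 11.3 FPKM with vehicle, 20.3% lower (log2 change −0.30 ± 0.04, limma adjusted p = 0.0012 without the library that stood apart). At 144 h Atm had 4.38, 0.277 and 4.29 FPKM with CT-179, against 5.20, 5.92 and 5.66 FPKM with vehicle. Replicate 2 held a small part of the level of its own group, and without it the difference was 22.4% (log2 change −0.30 ± 0.05, limma adjusted p = 0.0013). Atr had 4.96, 4.58 and 5.12 FPKM with CT-179 at 24 h, against 6.08, 6.07 and 5.83 FPKM with vehicle, 18.4% lower (log2 change −0.25 ± 0.04, limma adjusted p = 0.0033 without that library). At 144 h Atr had 2.53, 0.934 and 2.39 FPKM with CT-179, against 3.31, 3.58 and 3.59 FPKM with vehicle. It was 29.6% lower without replicate 2 (log2 change −0.38 ± 0.05, limma adjusted p = 0.00042). With all libraries none of the 3 kinases passed at either time, with limma adjusted p = 0.081 for Atr, 0.12 for Prkdc and 0.17 for Atm at 144 h.

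The BRCA mediators had lower mean levels with CT-179 at 24 h, where 4 of 5 passed without the library that stood apart, beside 14.1% of all genes called lower in that fit, and 0 of 5 with it. After the correction for exonic length 0 of the 5 passed in that fit, with log2 changes of −0.092 ± 0.04 for Brca1 (limma adjusted p = 0.13) and −0.13 ± 0.04 for Bard1 (limma adjusted p = 0.058). Brca1 had 11.8, 11.3 and 11.8 FPKM with CT-179, against 12.8, 13.5 and 13.2 FPKM with vehicle, 11.6% lower with no overlap (log2 change −0.16 ± 0.04, limma adjusted p = 0.014 without that library). Brca2 had 4.28, 4.01 and 4.53 FPKM with CT-179, against 5.02, 5.03 and 5.51 FPKM with vehicle, 17.6% lower (log2 change −0.23 ± 0.05). Palb2 had 2.55, 2.57 and 2.64 FPKM with CT-179, against 3.53, 3.08 and 3.29 FPKM with vehicle (log2 change −0.26 ± 0.07). Bard1 had 6.57, 6.28 and 6.58 FPKM with CT-179, against 7.11, 7.61 and 7.47 FPKM with vehicle (log2 change −0.17 ± 0.04). The fifth mediator, Brip1, had overlapping values. At 144 h 0 of the 5 passed with or without that library. Brca1 then had 0.968, 0.464 and 1.14 FPKM with CT-179, against 1.17, 1.17 and 1.13 FPKM with vehicle, and the groups overlapped. At 144 h all CT-179 values of Brca2, which were 0.943, 0.285 and 1.01 FPKM, lay below the vehicle values of 1.13, 1.29 and 1.19 FPKM.

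Of the other genes, Trp53bp1 and Fancm were lower at both times without the library that stood apart, with log2 changes for Trp53bp1 of −0.19 ± 0.03 at 24 h and −0.17 ± 0.03 at 144 h, and for Fancm of −0.17 ± 0.05 and −0.21 ± 0.05. Fancd2 and Blm passed at 144 h only in that fit. After the correction for exonic length in that fit, none of Trp53bp1, Fancm, Fancd2 and Blm passed at either time. Over the alternatives run, the smallest changes were −0.058 at 24 h and −0.053 at 144 h for Trp53bp1, and −0.076 and −0.12 for Fancm. Fancd2 at 24 h had 8.62, 8.31 and 9.0 FPKM with CT-179, against 9.15, 9.77 and 9.79 FPKM with vehicle, and at 144 h 0.757, 0.351 and 0.753 FPKM with CT-179, against 0.854, 1.20 and 0.989 FPKM with vehicle. These groups did not overlap at either time. Chek1 at 24 h had 14.1, 13.5 and 14.2 FPKM with CT-179, against 14.7, 14.3 and 15.1 FPKM with vehicle, a difference of 4.87% that did not pass. Parp1 and Xrcc6 showed overlapping values at 24 h, with 105, 105 and 109.6 FPKM with CT-179 against 107, 104 and 105 FPKM with vehicle for Parp1, and 23.1, 23.1 and 22.3 FPKM with CT-179 against 22.2, 23.4 and 20.6 FPKM with vehicle for Xrcc6. Groups did not overlap, with CT-179 lower, for 17 of the 33 genes at 24 h (22.9% of all genes) and 14 at 144 h (27% of all genes), and for 14 at 144 h without replicate 2 (32.7% of all genes). They did not overlap with CT-179 higher for 0 genes at 24 h (14.5% of all genes) and 1 at 144 h (19.1%), Fancl. Without replicate 2 this held at 144 h for 2 genes (27% of all genes), Fancl and Fanci.

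No repair gene passed a test of whether its response to the drug differed between the times. The test of the 144 h effect minus the 24 h effect called 0 of 33 with all libraries, where limma called 0% of all genes (0 repair genes and 574 genes at unadjusted p under 0.05), and 0 of 33 without the library that stood apart, where it called 1.46% lower and 1.2% higher. The smallest p-values with all libraries were those of Rad54l, Fancl, Blm and Atr, with adjusted p = 0.69 in limma for each. Rad54l differed by −0.17 ± 0.10, with 0.939, 0.668 and 0.902 FPKM for CT-179 and 1.09, 1.05 and 1.17 FPKM for vehicle at 144 h, and 7.76, 7.62 and 7.64 FPKM for CT-179 and 7.74, 7.53 and 8.22 FPKM for vehicle at 24 h. Fancl differed by 0.26 ± 0.15. It had 1.35, 2.16 and 1.41 FPKM with CT-179 and 1.32, 1.1 and 1.21 FPKM with vehicle at 144 h, and 4.46, 4.13 and 4.42 FPKM with CT-179 and 4.60, 4.12 and 4.49 FPKM with vehicle at 24 h. The 2.16 FPKM of Fancl was in the library that stood apart. Blm differed by −0.23 ± 0.14 and Atr by −0.41 ± 0.26. Blm had 2.10, 2.00 and 2.13 FPKM with vehicle at 144 h, and 12.1, 12.9 and 13.1 FPKM with vehicle at 24 h.

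The size of the CT-179 difference went with exonic length, the bases covered by all annotated exons of a gene. Exons of the 33 genes covered 2533 to 23629 bases with a median of 5774, beside 4629 for tested protein-coding genes. Across the 33 genes, Spearman's rho between exonic length and the log2 change was −0.61 at 24 h, and at 144 h it was −0.68 leaving out the library that stood apart (−0.70 with it). Over all tested coding genes it was −0.52 at 24 h and −0.44 at 144 h without that library (−0.68 with it). Genes share libraries and are not independent replicates, so these values are a description. For the change between times in vehicle cells rho was −0.0030 across the 33 genes and 0.05 across all coding genes. Of the 16 repair genes longer than 5774 bases, 9 were called lower at 24 h and 8 at 144 h without that library, and of the other 17 genes 2 and 1.

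Atr has the longest exonic sequence of the set, 23629 bases, followed by Trp53bp1 with 14164, Brca2 with 13643 and Prkdc with 13187. Rad52, at 5752 bases, is near the median. A correction then took the length trend out of each library. In that fit, without the library that stood apart, 4 genes (12.1%) were called lower at 24 h, beside 6.84% of all genes. At 144 h 4 genes (12.1%) were called lower, beside 10.8% of all genes, a count near the background. None of the 33 was called higher in these fits, beside 9.25% of all genes at 24 h and 12.8% at 144 h. Prkdc, Atm and Rad52 were called at both times, Fanca at 24 h and Atr at 144 h. Atr, called at 24 h in that fit before the correction, was not called at 24 h after it. Its 24 h change ran between −0.30 and −0.058 over the alternatives run. The corrected log2 changes at 24 h were −0.23 ± 0.04 for Prkdc, −0.21 ± 0.04 for Atm, −0.25 ± 0.06 for Rad52 and −0.25 ± 0.05 for Fanca. The correction also removes any true effect that follows length. The part of RNA quality or library preparation in the length trend was not tested.

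**Figure D4:**
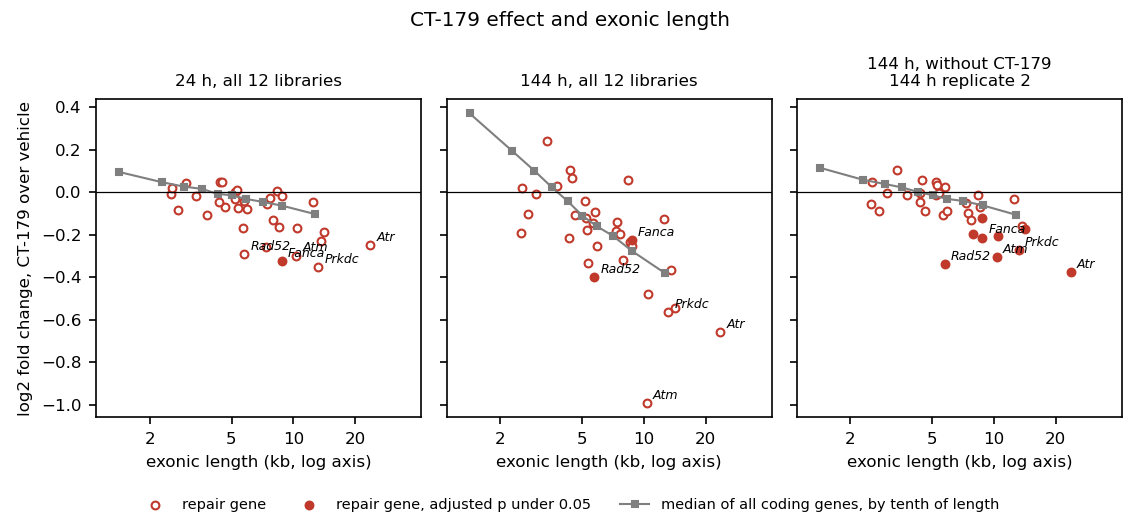
Log2 fold change of CT-179 over vehicle against exonic length (kb, log axis) for the repair genes, with filled points for an adjusted p under 0.05, and the median of all coding genes in 10 bins of length as a grey line. The line runs downward in all 3 panels, most steeply at 144 h with all libraries, and Rad52 lies below it in each.

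Vehicle brains stood below vehicle cells at 24 h for 31 of 32 repair genes and below vehicle cells at 144 h for 27, with median ratios of cells to brain of 5.68 and 2.23. In vehicle brains Fancd2, Fanci, Chek1, Rad54l and Bard1 were at or below 0.438 FPKM in every library, and Parp1 was again the highest, at 19.7 ± 0.41 FPKM (SD, n = 3). Rad52, at 8.2 ± 0.57 FPKM, and Trp53bp1, at 9.48 ± 0.30 FPKM, came next, then Nbn, at 6.74 ± 0.50 FPKM, and Msh6, at 6.55 ± 0.42 FPKM, neighbours whose spreads overlap. Ratios of the vehicle cells to vehicle brains at 24 h were 58.2 for Chek1 and 40.5 for Fanci but 1.11 for Trp53bp1 and 0.609 for Rad52, and at 144 h 5.76, 2.90, 1.24 and 0.659. At 144 h the ratio was 1.85 for Brca1, 1.90 for Bard1 and 1.24 for Fanca, and brains were the higher for Xrcc3 (0.186), Rad51c (0.541), Fancl (0.609) and Fancc (0.719) as well as Rad52. The tables were normalized separately, so these ratios are set side by side with no test. The filter was passed in brain by 21 of the 32 genes.

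In brain 0 of the 21 genes passed with CT-179, and limma called 0% of all 13422 genes (0 of the 21 and 490 of all genes at unadjusted p under 0.05). The smallest p-values were those of Prkdc, Xrcc5, Atr and Fancm, with adjusted p = 0.97 in limma for each. Prkdc had 1.47, 1.42 and 1.56 FPKM with CT-179, against 1.64, 2.00 and 1.80 FPKM with vehicle, a log2 difference of −0.18 ± 0.09 with no overlap. Atr had 1.40, 1.25 and 1.43 FPKM with CT-179, against 1.44, 1.68 and 1.57 FPKM with vehicle (−0.12 ± 0.09). Xrcc5 had 7.98, 6.03 and 6.44 FPKM with CT-179 and 5.83, 6.44 and 5.39 FPKM with vehicle, overlapping values (0.18 ± 0.11). Fancm had 0.828, 1.23 and 1.42 FPKM with CT-179 and 1.36, 1.46 and 1.33 FPKM with vehicle, also overlapping (−0.15 ± 0.12). Among the 21 genes the CT-179 group lay wholly below vehicle for 3, Prkdc, Atr and Mre11a, beside 4.6% of all genes, and wholly above for 0, beside 5.71%. Spearman's rho between length and log2 change was −0.56 across the 21 genes and −0.40 across all coding genes in brain. Oligodendrocyte markers summed to 5833 to 7327 FPKM with CT-179 and 5369 to 5800.4 FPKM with vehicle, and their part in these values was not tested.

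Several of the genes were too low for the filter in brain. Brca1 had 0.492, 0.578 and 0.702 FPKM with CT-179 and 0.515, 0.695 and 0.664 FPKM with vehicle. Brca2 had 0.409, 0.426 and 0.428 FPKM with CT-179 and 0.291, 0.566 and 0.540 FPKM with vehicle, and Fancd2 0.16, 0.187 and 0.262 FPKM with CT-179 and 0.179, 0.321 and 0.236 FPKM with vehicle. Fanca had 0.229, 0.146 and 0.269 FPKM with CT-179 and 0.194, 0.359 and 0.253 FPKM with vehicle, overlapping values, and was under the filter of the limma fit. Atm had 0.269, 0.530 and 0.587 FPKM with CT-179, just below the 0.649, 0.954 and 0.590 FPKM with vehicle. Parp1 had 19.1, 21.3 and 21.2 FPKM with CT-179 and 19.7, 19.3 and 20.1 FPKM with vehicle, and Xrcc6 had 4.69, 4.59 and 5.06 FPKM with CT-179 and 5.02, 4.17 and 4.97 FPKM with vehicle. In the authors' deposited table a set of 17 of 19464 brain genes had a false discovery rate under 0.05 (0.0873%), and 0 of them are among the 32 repair genes. The fold changes of the authors' deposited table run vehicle over CT-179, and across genes they correlated at 0.999956 with means that leave out vehicle replicate 2, against 0.708 with all libraries. Titles of the brains labelled CT-179 also hold the word vehicle, and every brain direction would turn round if the labels were crossed.

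Repair genes outside the list also fell with culture time more often than they rose, and few passed with the drug when all libraries were used. Of 166 tested genes in 7 further lists, 108 fell and 19 rose at 144 h against 24 h in vehicle cells, with a median log2 change of −0.56, beside 32.4% of all genes lower and 34.1% higher. In mismatch repair 14 of 16 genes fell and 2 rose, with a median of −1.04, including Pold1, a replicative polymerase, at −2.68 ± 0.06. In other homologous recombination 28 of 37 genes fell, among them the nuclease Exo1 at −2.70 ± 0.06. In other damage signalling 25 of 34 fell, including Clspn, which helps Atr to activate Chek1, at −2.74 ± 0.08. Of other Fanconi and crosslink genes 11 of 24 fell and 3 rose, with the core subunit Fancb at −2.87 ± 0.07, and in base excision repair 12 of 17 fell and 2 rose, with the ligase Lig1 at −2.90 ± 0.09. Other end joining was mixed, with 7 of 16 lower and 5 higher, and so was nucleotide excision repair, with 11 of 22 lower and 5 higher.

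With CT-179 at 24 h 0 of these 166 genes passed in either direction, and at 144 h 6 fell and 0 rose, beside 3.37% of all genes lower and 0.512% higher, so the count at 144 h is near the background. Of the 6, 4 were in other homologous recombination, including Dna2, an end-resecting nuclease, at −0.29 ± 0.06, and Tonsl, a fork repair factor, at −0.40 ± 0.09. The others were Mdm4, an inhibitor of p53, at −0.84 ± 0.18, and Ercc2, a helicase of nucleotide excision repair, at −0.24 ± 0.05. Without the library that stood apart, 22 were lower and 9 higher at 24 h, beside 14.1% and 8.08% of all genes, and 36 lower and 11 higher at 144 h, beside 16.9% and 11.8%. Mdm4 was then at −0.42 ± 0.04 at 24 h and −0.57 ± 0.04 at 144 h, and Sem1, a small protein that binds Brca2, at 0.18 ± 0.03 and 0.26 ± 0.03. In brain 0 of 143 tested genes passed.

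Few genes of the proliferation list passed with the drug when all libraries were used, and more passed at 144 h without the library that stood apart. At 24 h 0 of its 26 genes passed with all libraries, with a median log2 change of 0.02. Without the library that stood apart 2 rose and 1 fell, beside 8.08% of all genes higher and 14.1% lower. The gene that fell was Mki67, whose mean was 49.6 ± 2.0 FPKM in CT-179 cells and 66.3 ± 2.5 FPKM in vehicle cells (SD, n = 3 each, log2 change −0.41 ± 0.05). At 144 h 1 of 26 fell with all libraries, the cell cycle factor Foxm1 at −0.49 ± 0.10, beside 3.37% of all genes lower. Without that library 7 fell and 2 rose, beside 16.9% lower and 11.8% higher over all genes. Mitochondrially encoded genes summed to 7626 to 8185 FPKM with CT-179 and 6637 to 6929.9 FPKM with vehicle at 24 h, and to 9154 to 10050.5 FPKM with CT-179 and 8164 to 8894 FPKM with vehicle at 144 h. Their part in the CT-179 differences was not tested.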

How the data were processed

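RNA was sequenced for 12 cell libraries and 6 whole-brain libraries as paired reads of 100 bases, per the labels' protocols. The authors deposited FPKM values per gene in a cell table and a brain table, and the brain table also holds log2 fold changes, a likelihood ratio score, p-values and q-values (false discovery rates) deposited for the authors' brain comparison. The submitters' processing notes name the build mm10, R 3.6 with edgeR 3.28.1, HTSeq 0.6.1p2, STAR 2.6.0c and Trim Galore 0.5.0, with no roles. The sources used here give no strand setting.

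Counts were not used. Low FPKM values were whole multiples of a read for 89.2% to 97.7% of values, but the step differed from that of a plain FPKM by a factor of 1.23 to 1.40 of unknown origin, so no count model was fitted. The cells (12 libraries, 12510 genes) and the brains (6 libraries, 13422 genes) were fitted separately with limma 3.58.1 in R 4.3.3, on log2(FPKM + 1), with a trend in the variance, genes at 1 FPKM or more in 3 or more libraries, and Benjamini-Hochberg adjustment over all genes tested at a threshold of 0.05. Contrasts were CT-179 over vehicle at each time, 144 h over 24 h in each treatment, and the difference of the drug effects between times. Values of FPKM are relative within a library. Gene positions and exonic lengths come from GENCODE M21 and promoters from RefSeq GRCm38.p6. The fits were tried on simulated data with no length trend, whose spread in cells was taken without CT-179 at 144 h replicate 2. That trial therefore does not cover the fit of all 12 cell libraries.

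The genes and lists were chosen with earlier results of these data known. Values per library were given for Brca1, Brca2, Fancd2, Fanca, Atm, Chek1, Parp1, Prkdc and Xrcc6 and for the genes with the smallest p-values in each comparison, 4 for each drug contrast and 8 for each contrast of times; other values were picked after they were seen. The short E2F spelling was chosen after the promoters were seen. Replicate numbers were shared between groups, and the labels do not say that a number marks a shared culture, animal or day. Deviations of same-numbered libraries correlated above 0.1 in all 3 pairs between CT-179 cells at 144 h and at 24 h (0.109, 0.241 and 0.138) and in no other pair of groups, so a replicate block was also fitted for that contrast. Alternatives were other pseudocounts, filters, scalings, array weights, a length correction, a replicate block and leaving out each library. The brain's letters in the descriptions differ from its labels, and the labels were followed.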

Additional observations from a re-analysis of the deposited data

Results flagged for a closer look

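Chek1 lay on opposite sides of vehicle in brain and in cells, and was not called with the drug in any fit the report gives. In brain all 3 CT-179 libraries lay above all 3 vehicle libraries, with 0.274, 0.274 and 0.399 FPKM against 0.248, 0.253 and 0.255 FPKM, a log2 ratio of mean FPKM of 0.33. In cells all 3 CT-179 libraries lay below all 3 vehicle libraries, with log2 ratios of −0.19 at 144 h and −0.072 at 24 h. The difference between brain and cells was not tested, since the tables were normalized separately. Chek1 had 14.9 to 69.8 implied reads per brain library and was under the filter there, so limma did not test it in brain. In the authors' deposited table the brain comparison of Chek1 had p = 0.37 and a false discovery rate of 1.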

How the results depend on the processing

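Most single-gene values kept their direction and their side of the threshold (1040 the same, 143 newly past it, 62 no longer past it). Only 3 changed direction, all under the length correction with all libraries: Fanca at 144 h to 0.031, Blm at 144 h to 0.0037 and Atr in brain to 0.023. Under the alternatives run, the counts of genes called between times, for the difference of drug effects and in brain stayed within 1.5 times the reported count. The counts for CT-179 in cells did not. At 24 h the count of 1 became 0 with a pseudocount of 0.1, with no filter, with a filter of 3 FPKM, with median-of-ratios scaling, with the length correction and with the replicate block, 12 with array weights (whose estimate did not fully converge) and 11 in a fit of the 24 h libraries alone. At 144 h the count of 2 became 1 with no filter, with a filter of 3 FPKM and with the length correction, 11 with array weights, and 0 with the replicate block and in a fit of the 144 h libraries alone. Leaving out each library in turn gave 0 to 11 at 24 h and 0 to 9 at 144 h. Only leaving out CT-179 at 144 h replicate 2 kept the call of Fanca at 24 h. Without that library the counts at 24 h were 10 with median-of-ratios scaling, 4 with the length correction, 9 with a pseudocount of 0.1, 15 with TPM scaling and 11 with the replicate block, and at 144 h 7, 4, 13, 13 and 7 under the same settings. The last 3 of these settings were chosen after seeing the data. The causes of these changes were not tested. Over all genes, the median change at 144 h was −0.20 with TPM scaling and −0.05 as deposited. For 144 h against 24 h with CT-179, where the replicate numbers deviated together, the replicate block gave 29 genes lower in the fit of 12 libraries and 26 in one of the 6 CT-179 libraries alone (27 without the block there; this block was added after seeing the data), beside 29 reported. For the other contrasts the libraries shared only a number: deviations correlated between −0.13 and 0.24 over all pairs of cell groups and between −0.39 and 0.11 in brain, and a library correlated best with its own number in 11 of 36 cell comparisons and 1 of 6 brain comparisons. In brain, genes under the filter stood on 40.0 to 91.8 implied reads (Fanca), 32.5 to 78.4 (Fancd2), 75.4 to 247 (Brca1) and 14.9 to 69.8 (Chek1), and the part of depth was not tested.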
